A study of Mus musculus with 16 samples.

Results

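GATA factors and the partners of their SCL complex were followed through 8 genes, *Gata1*, *Gata2*, *Gata3*, *Zfpm1*, *Tal1*, *Lyl1*, *Lmo2* and *Ldb1*, which were picked by symbol from the 54347 genes of the deposited count table. All 8 were found, and all 8 had enough counts to be tested in each comparison. RNA had been sequenced from 2 populations of mouse bone marrow progenitors. LSKs are Lin- Sca-1+ c-Kit+ cells, which include the stem cells and multipotent progenitors, and GMPs, progenitors of granulocytes and monocytes, are c-Kit+ cells without lineage markers or Sca-1 that carry CD16/32. Both came from URE mice, in which the upstream regulatory element of *Spi1* (a distal enhancer of the gene for PU.1) is deleted, and from WT littermates without the deletion, on a C57BL/6 background and 8 to 12 weeks old. The deletion is present in the germ line, so that every cell of a URE mouse carried it and not only the sorted ones. Each of the 4 groups (WT LSK, URE LSK, WT GMP and URE GMP) held 4 mice and thus 4 libraries, 16 in all.

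GATA1, GATA2 and GATA3 are zinc finger proteins that bind the same short DNA element. GATA2 is known for the maintenance of stem cells and for mast cells, GATA1 for erythroid cells, megakaryocytes, eosinophils and mast cells, and GATA3 for T cells, innate lymphoid cells and, at a lower level, stem cells. FOG1, the product of *Zfpm1*, is a cofactor of GATA1. TAL1 (also called SCL) and its relative LYL1 are helix-loop-helix proteins that bind DNA together with an E protein, LMO2 bridges them to the GATA factor, and LDB1 holds such complexes together and links distant elements to promoters. PU.1 and GATA1 can bind each other and oppose each other's activity, and low PU.1 is the condition that the URE mice provide, so the comparison of URE with WT asks whether transcripts of the GATA factors and their partners differ where PU.1 is low.

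The members lie on 6 chromosomes (GRCm38, GENCODE M21 annotation). *Gata1* is at chrX:7959260-7978071 on the minus strand, *Gata2* at chr6:88193891-88207032 on the plus strand and *Gata3* at chr2:9857078-9890034 on the minus strand. *Zfpm1* is at chr8:122282141-122337251, *Tal1* at chr4:115056426-115071755, *Lyl1* at chr8:84701457-84704715 and *Lmo2* at chr2:103957986-103981878, all on the plus strand, and *Ldb1* is at chr19:46031570-46045214 on the minus strand. All 8 are protein-coding, and counts cover the exons of a gene, untranslated parts included. The libraries do not keep the strand. *Ldb1* shares 177 of its 4606 exonic bases with *Pprc1* on the other strand, which had 404 to 5578 counts per library against 186 to 702 for *Ldb1*, so the split of reads from these bases is uncertain. *Gata3* shares 232 of its 3978 exonic bases with *Gm13256* and *9230102O04Rik*, which had at most 4 counts in any library, and *Lyl1* shares 4 of 1800 with *Nfix*.

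Sequence just upstream of the annotated starts is shown because GATA and SCL genes are known to be regulated by GATA factors and PU.1 binds ETS elements. RefSeq promoter entries (GRCm38.p6) were found for 7 of the 8 members, *Lmo2* being the exception, and the 250 bases before each start were searched on both strands. The motifs searched were the GATA hexamer AGATAA with its variants in the first letter (TGATAA), the last letter (AGATAG) or both letters (TGATAG), counted together. The others were the ETS core GGAAGT, the PU.1 octamer GAGGAAGT, which contains this core, the E-box CAGATG of TAL1 and the RUNX motif TGTGGT. Among windows of this length before 32851 starts, 26.5% held a GATA hexamer, 19.7% the ETS core, 2.44% the PU.1 octamer, 14.4% the E-box and 14.0% the RUNX motif. In the 11 windows of the members, the matches were 1 GATA hexamer in the *Tal1* window (205 bases before the start), 2 in the window of an internal *Ldb1* start (240 and 200 bases before it) and 1 ETS core in the *Zfpm1* window (191 bases before the start). TTATCT is AGATAA on the opposite strand. The windows of the *Gata1* start and of the upstream *Gata2* start held none of these letters, and neither did that of *Gata3*, which lies within annotated exons and is not printed. Matches are marked in capitals below, 5′ to 3′ on the strand of the gene, and they describe letters in these windows and not bound sites.
Tal1, chr4:115056176-115056425, plus strand: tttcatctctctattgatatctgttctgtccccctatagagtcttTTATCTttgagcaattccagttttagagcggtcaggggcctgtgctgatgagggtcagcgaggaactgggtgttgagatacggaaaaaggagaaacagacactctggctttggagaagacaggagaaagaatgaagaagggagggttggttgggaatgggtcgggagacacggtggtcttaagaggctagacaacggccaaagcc
Ldb1, internal start, chr19:46037071-46037320, minus strand: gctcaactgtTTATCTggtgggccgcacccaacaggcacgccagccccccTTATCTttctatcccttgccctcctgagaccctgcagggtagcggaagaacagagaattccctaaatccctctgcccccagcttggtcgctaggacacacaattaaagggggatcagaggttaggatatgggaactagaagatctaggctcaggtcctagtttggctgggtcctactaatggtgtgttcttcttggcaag
Zfpm1, chr8:122281891-122282140, plus strand: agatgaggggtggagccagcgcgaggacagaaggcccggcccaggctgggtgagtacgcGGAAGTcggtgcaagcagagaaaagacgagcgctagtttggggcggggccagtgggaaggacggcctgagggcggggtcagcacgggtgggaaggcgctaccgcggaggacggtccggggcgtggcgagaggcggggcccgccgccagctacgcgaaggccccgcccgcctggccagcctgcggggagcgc
Gata1, chrX:7967911-7968160, minus strand: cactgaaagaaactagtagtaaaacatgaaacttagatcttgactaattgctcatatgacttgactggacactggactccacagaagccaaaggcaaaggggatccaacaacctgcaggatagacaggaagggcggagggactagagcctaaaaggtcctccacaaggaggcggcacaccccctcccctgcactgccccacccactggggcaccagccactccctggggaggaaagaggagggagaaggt
Gata2, upstream start, chr6:88193641-88193890, plus strand: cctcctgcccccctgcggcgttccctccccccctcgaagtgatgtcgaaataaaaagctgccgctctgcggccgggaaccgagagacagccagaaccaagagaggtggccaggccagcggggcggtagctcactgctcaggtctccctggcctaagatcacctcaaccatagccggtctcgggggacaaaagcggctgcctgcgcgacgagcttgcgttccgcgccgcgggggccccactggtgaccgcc

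Total counts per library lay between 20028302 and 29128858. Levels are given as CPM, the usual counts scaled to the size of each library, with all 16 libraries scaled together, and as CPM per kb, the same divided by the exonic length, wherever genes are compared with each other. *Ly6a*, which encodes the Sca-1 antigen of the LSK gate, had 35.1 to 122 CPM in LSKs and 0.564 to 2.88 CPM in GMPs, and *Mpo*, a gene of granule-forming cells, had 522 to 1240 CPM in LSKs and 43600 to 129000 CPM in GMPs. Of 7 genes of the gates and of granule-forming cells, those called between genotypes were *Cd34*, lower in URE LSKs and GMPs (−1.31 and −1.80 on the log2 scale, adjusted p = 0.00638 and 0.000283), *Fcgr2b*, lower in URE LSKs (−4.77, adjusted p = 0.0064), the granule protease gene *Elane*, higher in URE LSKs (1.15, adjusted p = 0.0416), and *Fcgr3*, the gene for CD16, higher in URE GMPs (1.34, adjusted p = 0.0326, all edgeR). When each library was left out in turn, 1 of the 7 was called higher in LSKs only without WT LSK replicate 3, and 1 in GMPs only without URE GMP replicate 1 or 3. With the replicate number as a block, *Elane* (0.94, adjusted p = 0.0377) and *Mpo* (0.81, adjusted p = 0.0324) were also called higher in URE GMPs. *Fcgr2b* was called lower there (−0.89, adjusted p = 0.0215, edgeR). Over all genes tested, 6.14% were called in LSKs and 8.3% in GMPs, and with the block 9.46% and 16.3%. The part of the gate in the values of the members was not tested. Many genes differed between replicates 1 and 4 and replicates 2 and 3 of a group, as described further on. *Xist* was high and *Ddx3y* at 0 in replicate 4 of every group and in replicates 2 and 3 of the URE groups, and the reverse held in replicate 1 of every group and in replicates 2 and 3 of the WT groups, so replicates 1 and 4 were matched for sex across genotypes and replicates 2 and 3 were not.

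The deletion was checked first on its target. *Spi1* had 127, 69.5, 134 and 166 CPM in WT LSKs (replicates 1 to 4) and 2.85, 4.44, 3.67 and 1.13 CPM in URE LSKs. In GMPs it had 139, 84.8, 181 and 153 CPM in WT and 17.4, 28.6, 23.6 and 15.6 CPM in URE. URE libraries were thus below WT libraries without overlap in both cell types, and the log2 fold changes were −5.39 (SE 0.47) in LSKs and −2.73 (SE 0.30) in GMPs (adjusted p = 0.000266 and 0.00095, quasi-likelihood test of edgeR, Benjamini-Hochberg adjusted). The loss was larger in LSKs by 2.64 on the log2 scale (SE 0.52, adjusted p = 0.0218, interaction term of the same test), and without WT LSK replicate 4 by 2.47 (adjusted p = 0.0503, edgeR).

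*Gata3* was the member that differed between the genotypes, and it was higher in URE mice in both cell types. In LSKs, *Gata3* had 44.7, 55.6, 43.7 and 50.7 CPM in the 4 WT libraries and 98.0, 116, 119 and 109 CPM in the 4 URE libraries. Every URE LSK library lay above every WT LSK library, and the spread within a group was small, the highest WT value being 1.27 times the lowest and the highest URE value 1.21 times the lowest. The log2 fold change was 1.15 (SE 0.15), a 2.22-fold rise with a 95% interval of 1.75 to 2.81 (adjusted p = 0.00225, quasi-likelihood test of edgeR, Benjamini-Hochberg adjusted over 15154 genes). In GMPs, where WT cells held little of it, *Gata3* had 5.28, 4.32, 2.93 and 10.2 CPM in WT and 46.1, 19.4, 42.4 and 34.2 CPM in URE libraries. No URE library overlapped with a WT library, and the log2 fold change was 2.65 (SE 0.43), a 6.28-fold rise with a 95% interval of 3.22 to 12.3 (adjusted p = 0.00547, edgeR with Benjamini-Hochberg adjustment over 13829 genes). Over the groups, the mean of *Gata3* was 5.69 ± 3.17 CPM in WT GMPs, 35.5 ± 11.8 in URE GMPs, 48.7 ± 5.54 in WT LSKs and 110 ± 9.13 in URE LSKs (SD, n = 4 each), and the ranges of URE GMPs and WT LSKs overlapped. In bulk RNA of sorted cells, more cells with the transcript and more transcript per cell cannot be told apart.

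Thus 1 of 8 members was called in LSKs and 1 of 8 in GMPs, at an adjusted p under 0.05 and a change above 1.5-fold. Over all genes tested, 6.14% were called in LSKs and 8.3% in GMPs in either direction, with 2.38% and 4.67% called higher in URE and 3.76% and 3.63% called lower. Genotypes did not overlap for 1 member in each cell type, again *Gata3*, against 12.6% of all genes in LSKs and 14.8% in GMPs. The exact two-sided permutation test gave p = 0.0286 for *Gata3* in each cell type, the smallest p that 4 libraries against 4 allow, in 16 such tests of the members. The median log2 fold change of the members was −0.10 in LSKs and 0.07 in GMPs, where it was 0.000926 and 0.00521 over all genes tested.

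The *Gata3* difference was also read within the replicate sets. Within the sex-matched replicates 1 and 4 alone, the log2 fold change of *Gata3* was 1.09 in LSKs (adjusted p = 0.0173) and 2.36 in GMPs (adjusted p = 0.00909), from edgeR with Benjamini-Hochberg adjustment, where 6.42% and 8.82% of all genes were called. Within replicates 2 and 3 alone it was 1.21 and 3.08, where the adjusted p of 0.0578 and 0.0692 from the same test missed the threshold. The URE library was above the WT library of the same number in 4 of 4 pairs in each cell type, by 1.06 to 1.44 in LSKs and by 1.74 to 3.81 in GMPs on the log2 scale. When the summed Y-linked level entered the fit, *Gata3* passed in both cell types with 1.08 (adjusted p = 0.021) and 2.56 (adjusted p = 0.0177, edgeR). With the replicate number as a block *Gata3* was again the member called, where 9.46% of all genes were called in LSKs and 16.3% in GMPs.

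**Figure D1:**
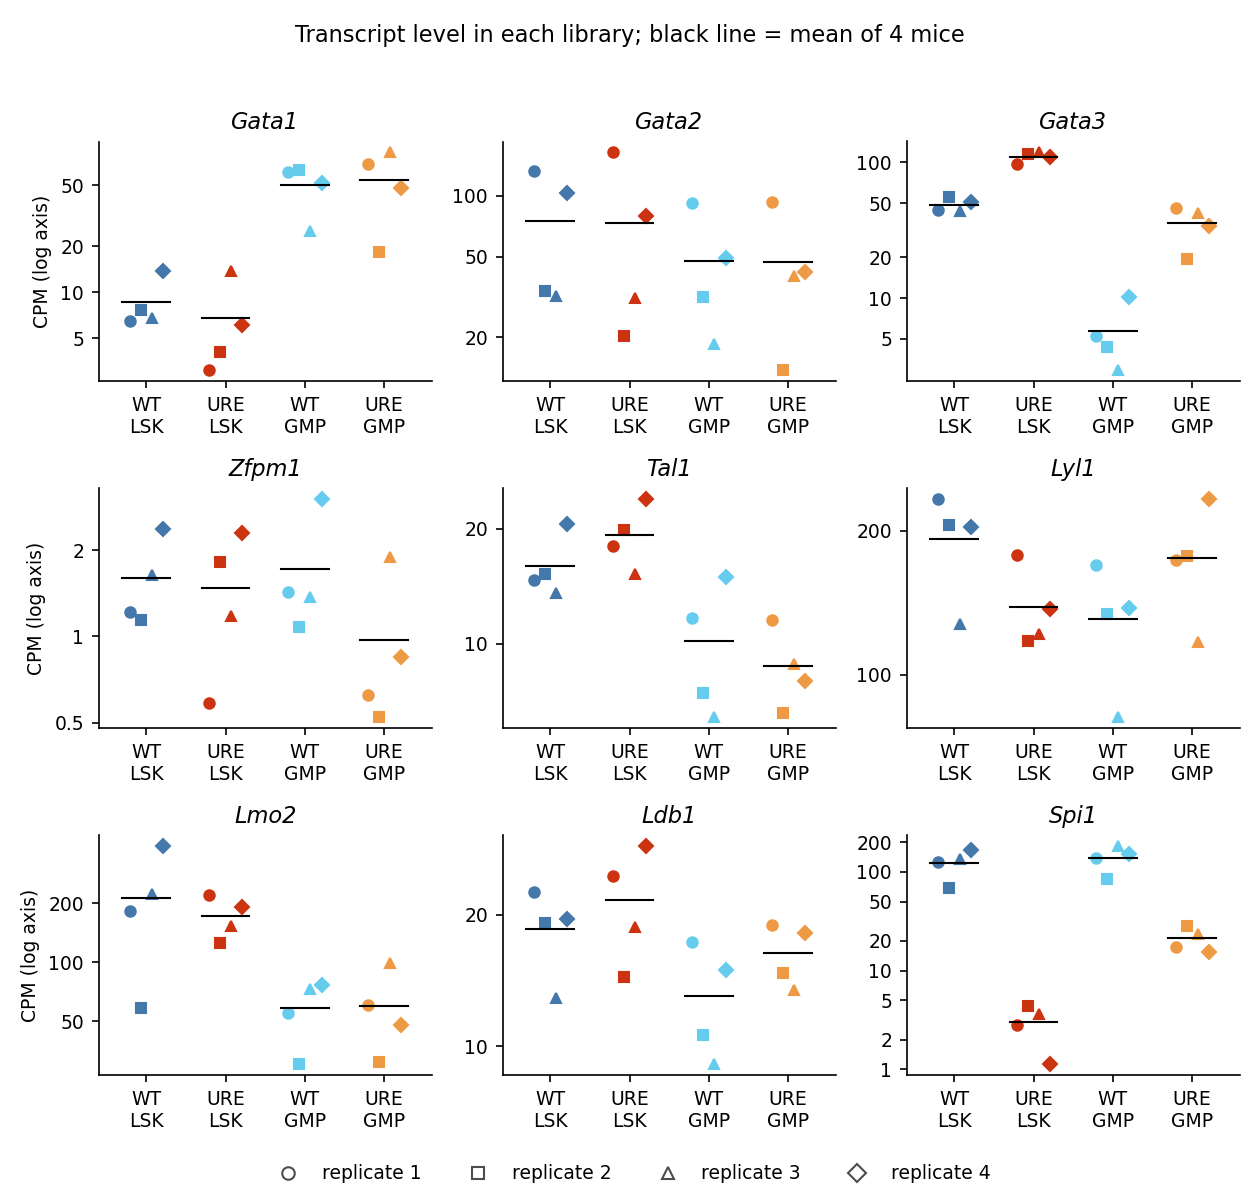
Level of the 8 members and of *Spi1* in each of the 16 libraries, in CPM on a log axis, by group on the horizontal axis, with a marker shape for each replicate number and a black line at the mean of 4 mice. *Gata3* is higher in URE than in WT without overlap in LSKs (98.0 to 119 against 43.7 to 55.6 CPM) and in GMPs (19.4 to 46.1 against 2.93 to 10.2 CPM), while the genotypes overlap for the other members.

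*Gata1*, the factor whose opposition to PU.1 is best known, did not pass in either cell type. *Gata1* had 6.47, 7.69, 6.76 and 13.7 CPM in WT LSKs and 3.08, 4.08, 13.8 and 6.11 CPM in URE LSKs. The genotypes overlapped, with URE replicate 3 as high as the highest WT library and URE replicates 1, 2 and 4 below every WT library. The log2 fold change was −0.38 (95% interval −1.46 to 0.71, adjusted p = 0.872, edgeR with Benjamini-Hochberg adjustment), which leaves room for anything between a fall to 0.363 and a rise to 1.63 times the WT level. URE LSK replicate 3 was also rich in platelet transcripts, given further on with the megakaryocyte genes, and without it the log2 fold change was −0.99 (adjusted p = 0.202, edgeR). Within replicates 1 and 4 it was −1.16 (adjusted p = 0.257), and within replicates 2 and 3 it was 0.27 (adjusted p = 1, edgeR). In GMPs the values were 61.0, 63.2, 24.9 and 51.5 CPM in WT and 69.2, 18.3, 82.0 and 48.0 CPM in URE. The lowest and the highest of these 8 libraries were both URE, and the log2 fold change was 0.13 (95% interval −0.89 to 1.14, adjusted p = 0.924, edgeR with Benjamini-Hochberg adjustment). *Gata1* lies on the X chromosome, and the sexes were unevenly spread over the genotypes. With the Y-linked level in the fit, its log2 fold changes were −1.02 in LSKs and 0.21 in GMPs (adjusted p = 0.492 and 0.928, edgeR).

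*Gata2* had similar means in both genotypes and a wide spread within each. In LSKs it had 132, 33.7, 32.0 and 102.5 CPM in WT (replicates 1 to 4) and 163, 20.5, 31.3 and 79.1 CPM in URE. In GMPs it had 91.5, 31.6, 18.6 and 49.2 CPM in WT and 92.5, 13.8, 40.2 and 42.2 CPM in URE. Replicates 1 and 4 were above replicates 2 and 3 in each of the 4 groups, and URE and WT overlapped within both cell types. The log2 fold changes were −0.06 in LSKs (95% interval −1.58 to 1.45) and −0.01 in GMPs (95% interval −1.36 to 1.33), with adjusted p = 0.988 and 0.994 (quasi-likelihood test of edgeR, Benjamini-Hochberg adjusted). With the replicate number as a block, the intervals narrowed to between −0.63 and 0.17 in LSKs and between −0.82 and 0.66 in GMPs, and *Gata2* still did not pass (adjusted p = 0.487 and 0.893, edgeR).

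**Figure D2:**
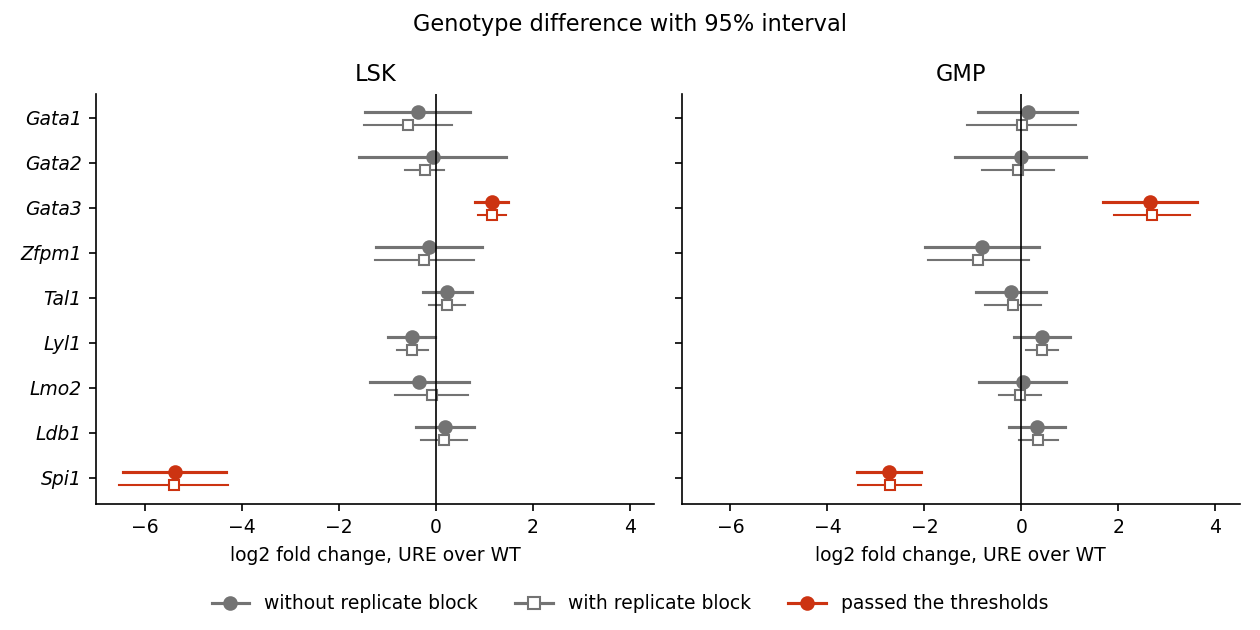
Log2 fold change of URE over WT for each member and *Spi1* in LSKs (left) and GMPs (right), as points with 95% intervals, without (filled circles) and with (open squares) the replicate number as a block. *Gata3* alone among the members passed the thresholds (red), at 1.15 in LSKs and 2.65 in GMPs, and *Spi1* lay at −5.39 and −2.73.

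Transcripts of the partners that build the SCL complex did not pass in either cell type. *Tal1* had 14.7, 15.3, 13.6 and 20.6 CPM in WT and 18.0, 19.9, 15.2 and 23.9 CPM in URE LSKs. The URE library was the higher one in 4 of 4 pairs of equal number, but the ranges overlapped, and the log2 fold change was 0.24 (SE 0.22, adjusted p = 0.789, edgeR with Benjamini-Hochberg adjustment). In GMPs *Tal1* was at 6.40 to 15.0 CPM in WT and 6.58 to 11.5 CPM in URE, with a log2 fold change of −0.21 (SE 0.32, adjusted p = 0.797, edgeR).

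*Lyl1* was lower in URE LSKs and higher in URE GMPs in each pair of equal number, without passing. In LSKs it had 232.5, 205, 127 and 204 CPM in WT and 178, 118, 121 and 137 CPM in URE. All but 1 WT library, replicate 3, lay above all URE libraries, and the log2 fold change was −0.50 (SE 0.21, adjusted p = 0.29, edgeR). An exact permutation of the libraries, two-sided, gave p = 0.0857 for it. In GMPs *Lyl1* had 169, 134, 81.5 and 138 CPM in WT and 174, 177, 117 and 233 CPM in URE. The log2 fold change was 0.42 (SE 0.26, adjusted p = 0.431, edgeR). With the replicate number as a block, the 95% intervals of *Lyl1* were −0.81 to −0.17 in LSKs and 0.08 to 0.76 in GMPs. It still did not pass (adjusted p = 0.0656 and 0.0864, edgeR).

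*Lmo2* and *Ldb1*, the bridge and the scaffold of the complex, showed overlapping genotypes. *Lmo2* had 182.5, 58.5, 223.5 and 389 CPM in WT LSKs against 220, 126, 153 and 190 CPM in URE LSKs, so that the lowest and the highest value were both WT. The log2 fold changes of *Lmo2* were −0.34 (SE 0.46) in LSKs and 0.02 (SE 0.40) in GMPs (adjusted p = 0.882 and 0.987, edgeR). *Ldb1* was at 12.9 to 22.5 CPM in WT and 14.4 to 28.7 CPM in URE LSKs, and at 9.09 to 17.4 CPM in WT and 13.5 to 18.9 CPM in URE GMPs. Its log2 fold changes were 0.19 (SE 0.27) and 0.32 (SE 0.25), with adjusted p = 0.892 and 0.571 (edgeR with Benjamini-Hochberg adjustment), and in GMPs the URE library was the higher one in 4 of 4 pairs.

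*Zfpm1* was the member with the fewest counts, 10 to 59 per library, and its values are the least precise. It had 1.22, 1.14, 1.64 and 2.38 CPM in WT and 0.585, 1.82, 1.18 and 2.30 CPM in URE LSKs. In GMPs it had 1.43, 1.08, 1.37 and 3.01 CPM in WT and 0.627, 0.522, 1.90 and 0.845 CPM in URE, where URE replicates 1, 2 and 4 lay below every WT library and URE replicate 3 did not. The log2 fold changes were −0.14 (95% interval −1.24 to 0.96) and −0.81 (95% interval −1.98 to 0.37), with adjusted p = 0.968 and 0.456 (edgeR with Benjamini-Hochberg adjustment).

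The sizes of the genotype differences were then compared between the cell types. None of the 8 members passed the interaction test without the replicate block (edgeR's quasi-likelihood test, 1.22% of 15935 genes passing), although 2, *Gata3* and *Lyl1*, had an unadjusted p under 0.05, and DESeq2 passed *Gata3*. The *Gata3* rise was larger in GMPs by 1.46 on the log2 scale (SE 0.45, adjusted p = 0.143), and with the replicate block by 1.51 (adjusted p = 0.0483, edgeR). Without WT GMP replicate 4, the library with the most *Gata3* in its group, the difference was 1.88 (adjusted p = 0.0321, edgeR). For *Lyl1*, the difference was 0.90 (SE 0.36, adjusted p = 0.301), and with the block 0.88 (SE 0.20, adjusted p = 0.0208, edgeR). The block passed 6.57% of all genes.

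**Figure D3:**
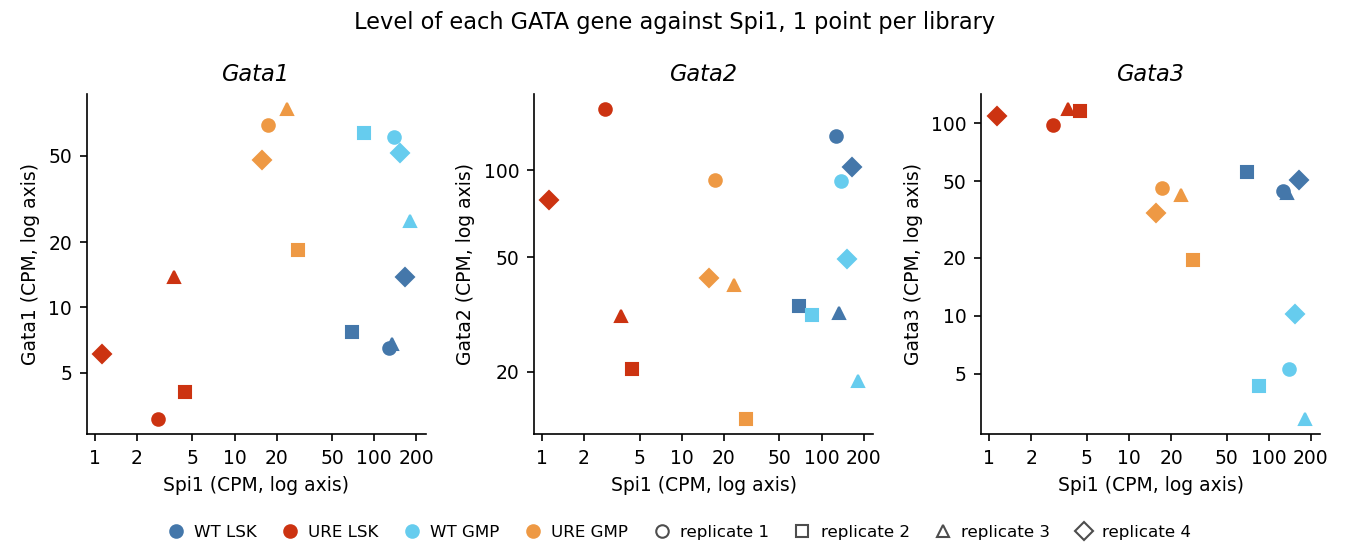
Level of *Gata1*, *Gata2* and *Gata3* against *Spi1* in each library, both in CPM on log axes, with a colour for each group and a marker shape for each replicate number. URE LSK libraries, with 1.13 to 4.44 CPM of *Spi1*, hold the most *Gata3* (98.0 to 119 CPM) and WT GMP libraries the least, while *Gata1* separates by cell type and *Gata2* by replicate number.

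Between LSKs and GMPs the members differed in opposite directions. *Gata1* was higher in GMPs, in WT mice by 2.53 on the log2 scale (SE 0.52, adjusted p = 0.00185, edgeR with Benjamini-Hochberg adjustment over 15935 genes), which is 5.79-fold. In URE mice it was higher by 3.01 (SE 0.53, adjusted p = 0.000603), and all GMP libraries (18.3 to 82.0 CPM) lay above all LSK libraries (3.08 to 13.8 CPM). *Gata3* was lower in GMPs, with log2 fold changes of −3.10 in WT (SE 0.34, adjusted p = 1.35e-05) and −1.63 in URE (SE 0.32, adjusted p = 0.00141, edgeR), without overlap in either genotype. *Lmo2* was lower in GMPs as well, with log2 fold changes of −1.87 in WT (SE 0.47, adjusted p = 0.00779) and −1.53 in URE (SE 0.47, adjusted p = 0.0236, edgeR). The *Lmo2* ranges overlapped in WT, where LSK replicate 2 (58.5 CPM) lay among the GMP libraries (30.2 to 76.6 CPM), and did not in URE (126 to 220 against 30.8 to 98.8 CPM). The URE call of *Lmo2* was lost without URE GMP replicate 2, URE GMP replicate 4 or URE LSK replicate 1 (adjusted p = 0.0721, 0.0666 and 0.0597, edgeR).

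*Tal1* was lower in URE GMPs (6.58 to 11.5 CPM) than in URE LSKs (15.2 to 23.9 CPM), with a log2 fold change of −1.14 (SE 0.28, adjusted p = 0.00652, edgeR with Benjamini-Hochberg adjustment). In WT the difference was −0.66 (SE 0.28, adjusted p = 0.0855), and it passed with the replicate block at −0.71 (adjusted p = 0.0144, edgeR, with 36.8% of all genes called) and without WT GMP replicate 4 at −0.91 (adjusted p = 0.0265, edgeR). In all, 3 of 8 members were called between the cell types in WT, where 26.8% of all genes were called (11.3% higher in GMPs and 15.5% lower), and 4 of 8 in URE, where 24.9% were (10.6% higher and 14.2% lower). Within replicates 1 and 4 alone the same members passed in each genotype, and within replicates 2 and 3 alone only *Gata3* did, with *Gata1* at 2.61 in WT and 2.55 in URE (adjusted p = 0.0694 and 0.0838), *Lmo2* at −1.45 in WT and −1.06 in URE (adjusted p = 0.234 and 0.415) and *Tal1* at −1.16 in URE (adjusted p = 0.0955, edgeR). Genes whose LSK and GMP libraries did not overlap made up 30.6% of all genes in WT and 25.4% in URE, and among the members these were *Gata1* and *Gata3* in WT and *Gata1*, *Gata3*, *Tal1* and *Lmo2* in URE. *Gata2*, *Zfpm1*, *Lyl1* and *Ldb1* were not called in either genotype, except *Lyl1* in WT without WT LSK replicate 3 (−0.71, adjusted p = 0.0492, edgeR). *Gata2* was at −0.65 (SE 0.70) in WT and −0.64 (SE 0.70) in URE, *Lyl1* at −0.56 (SE 0.25) and 0.34 (SE 0.25), and *Ldb1* at −0.51 (SE 0.26) and −0.40 (SE 0.26), with adjusted p between 0.112 and 0.55 (edgeR). With the replicate block in WT, *Lyl1* was at −0.57 (adjusted p = 0.00511) and *Ldb1* at −0.53 (adjusted p = 0.0158, edgeR). Both stayed short of the 1.5-fold change that a call required.

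Per length, *Lyl1* and *Lmo2* had the highest means in all 4 groups. In WT LSKs *Lyl1* had 107 ± 25.1 and *Lmo2* 98.5 ± 63.0 CPM per kb (SD, n = 4 each), and their ranges overlapped. *Gata2* with 13.9 ± 9.30 and *Gata3* with 12.2 ± 1.39 CPM per kb followed, also with overlap, then *Ldb1* with 4.02 ± 0.878, *Tal1* with 3.66 ± 0.707 and *Gata1* with 3.55 ± 1.40 CPM per kb, which overlapped, and last *Zfpm1* with 0.455 ± 0.162 CPM per kb (SD, n = 4 each). In URE LSKs *Gata3* followed the pair with 27.7 ± 2.30 CPM per kb, above *Gata2* (13.6 ± 12.04 CPM per kb) in 3 of 4 libraries. In WT GMPs *Gata1* was the leading GATA factor with 20.6 ± 7.21 CPM per kb, in a range that overlapped with that of *Lmo2*, *Gata2* had 8.84 ± 5.88 CPM per kb, and *Gata3*, with 1.43 ± 0.797 CPM per kb, was above *Zfpm1* alone. In URE GMPs *Gata1* led them again, with 22.3 ± 11.4 CPM per kb, and *Gata3* (8.93 ± 2.97) and *Gata2* (8.74 ± 6.09) could not be ranked, with *Gata3* the higher in 3 of 4 libraries.

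The 3 GATA transcripts were also set against each other within a library. In WT GMPs *Gata3* made up 3.07%, 3.30%, 5.12% and 7.83% of their summed CPM per kb, and in URE GMPs 20.3%, 32.7%, 20.6% and 23.8%. The URE shares lay above the WT shares without overlap, 24.3% ± 5.79 against 4.83% ± 2.20 (SD, n = 4 each), and a two-sided exact permutation of the libraries gave 0.0286, the smallest p possible. The *Gata1* share was 54.9% ± 7.08 in URE and 68.0% ± 9.02 in WT GMPs, and the groups overlapped (p = 0.0857, same exact test). In LSKs it was 6.60% ± 4.95 in URE and 12.4% ± 3.72 in WT, also with overlap (p = 0.0857, same exact test). Within each pair of equal number, the *Gata1* share was lower in URE in both cell types. The 3 shares of a library are parts of the same sum, so a larger *Gata3* share by itself makes the *Gata1* share smaller. The *Gata1* shares are thus not a result apart from the *Gata3* difference. The level of *Gata1* itself was not called, with log2 fold changes of −0.38 in LSKs and 0.13 in GMPs. In LSKs the *Gata3* share was 65.5% ± 17.1 in URE and 44.7% ± 15.3 in WT, with overlapping ranges (p = 0.114, same exact test, which does not use the pairs), and it was the higher one in URE in 4 of 4 pairs of equal number. The *Gata2* share there ranged from 11.0% to 63.7% and was larger in replicates 1 and 4. The other family members, *Gata4*, *Gata5* and *Gata6*, had 0 counts in every library.

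**Figure D4:**
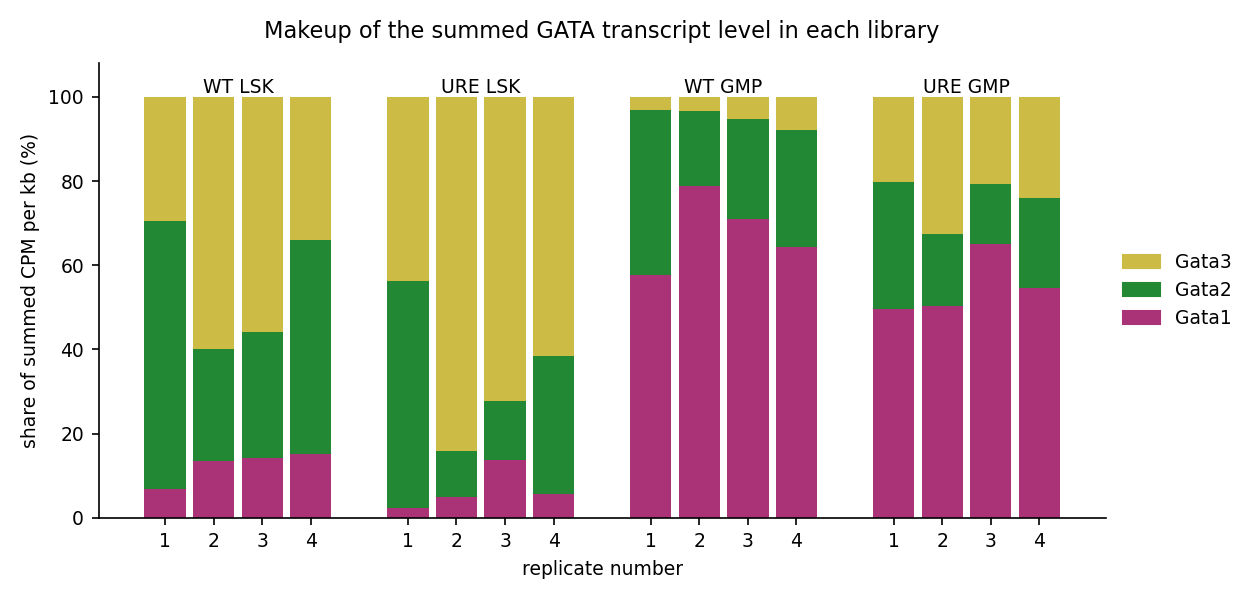
Share of *Gata1*, *Gata2* and *Gata3* in their summed level (CPM per kb, in %) in each library, with bars grouped by genotype and cell type and numbered by replicate. *Gata3* takes 3.07% to 7.83% in WT GMPs and 20.3% to 32.7% in URE GMPs, and the *Gata2* share is larger in replicates 1 and 4 of both LSK groups.

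The replicate number went along with the level of several members. *Gata2* was higher in replicates 1 and 4 than in replicates 2 and 3 without overlap in all 4 groups, by 1.82 in WT LSKs, 2.16 in URE LSKs, 1.47 in WT GMPs and 1.40 in URE GMPs on the log2 scale. *Ldb1* did the same, by 0.40 to 0.71. Of all 15935 genes, 12.3% were higher in replicates 1 and 4 without overlap in all 4 groups and 18.5% were separated in 1 direction, so many genes shared this pattern. In single groups, the share of all genes separated in either direction was 54.2% in WT LSKs, 50.3% in URE LSKs, 51.8% in WT GMPs and 44.6% in URE GMPs. *Gata3* in LSKs differed by −0.05 in WT and −0.18 in URE between the sets, whereas in WT GMPs it was 1.03 higher in replicates 1 and 4. The labels do not say what the replicate number stands for beyond the mouse, and its part in the levels was not tested.

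**Figure D5:**
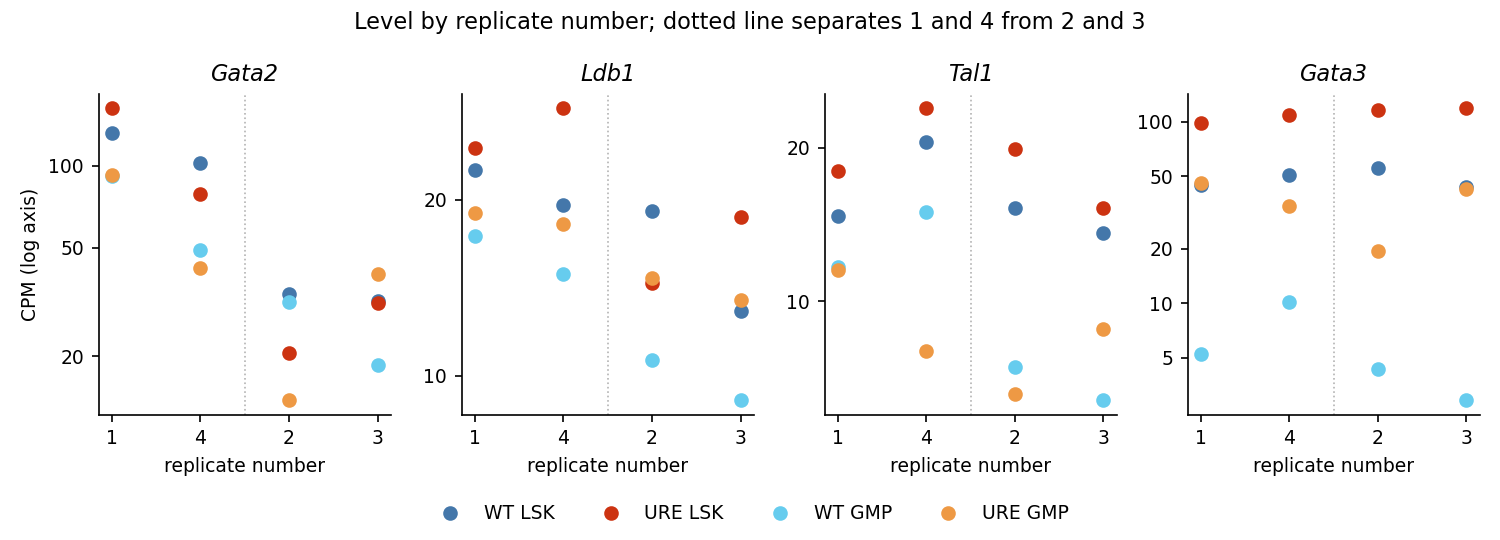
Level of *Gata2*, *Ldb1*, *Tal1* and *Gata3* in CPM on a log axis by replicate number, with 1 and 4 to the left and 2 and 3 to the right of the dotted line and a colour for each group. *Gata2* is higher to the left in all 4 groups (42.2 to 163 CPM) than to the right (13.8 to 40.2 CPM), whereas the URE LSK values of *Gata3* stay between 98.0 and 119 CPM.

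For each member, the genes with the most similar pattern over the 16 libraries were listed by Pearson's r of log2 CPM among 15934 other genes. These r values describe libraries that share groups, replicate numbers and depth. *Gata1* was nearest to the erythroid factor *Klf1* (r = 0.974), the carbonic anhydrase *Car1* (r = 0.973) and the red cell antigen gene *Ermap* (r = 0.969). In GMPs the libraries low in *Gata1* were low in these too, with URE replicate 2 at 18.3 CPM of *Gata1*, 15.7 of *Klf1* and 33.0 of *Car1*, and URE replicate 3 at 82.0, 96.1 and 339 CPM. *Gata3* was nearest to *Art4* (r = 0.973), *Mettl7a1* (r = 0.97) and *Gm16565* (r = 0.97), and *Tal1* to the zinc finger gene *Zfp521* (r = 0.938). *Lmo2* was nearest to *Ypel3* (r = 0.991), *Lyl1* to *Pde4dip* (r = 0.928), *Ldb1* to *Zfp395* (r = 0.968) and *Gata2* to *Cactin* (r = 0.939), while no gene exceeded r = 0.827 (*Lipt2*) for the scarce *Zfpm1*.

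Further partners of the complex were read in the same fits. Of 12 genes for E proteins, LIM and LDB1 cofactors, 11 were tested in LSKs, of which 2 rose and none fell, and 10 in GMPs, of which none rose and 1 fell. Of all genes tested, 2.38% were called higher and 3.76% lower in LSKs, and 4.67% and 3.63% in GMPs. In LSKs *Gfi1b*, a repressor that acts beside GATA1 in red cells and megakaryocytes, had 40.3 ± 10.1 CPM in WT and 102 ± 33.4 CPM in URE (SD, n = 4 each). It rose by 1.31 on the log2 scale (adjusted p = 0.0221, edgeR with Benjamini-Hochberg adjustment). *Ldb2*, the relative of *Ldb1*, rose by 2.79 on the log2 scale from a very low level (0.24 to 1.72 CPM, adjusted p = 0.0248, edgeR). With a library left out, *Gfi1b* was called 5 of 8 times. No gene of this list was called higher in LSKs without WT LSK replicate 1 or 3. In GMPs *Lmo1*, the relative of *Lmo2*, fell from 1.58 to 0.0251 CPM (adjusted p = 0.00232, edgeR), and the replicate block added *Cbfa2t3* as higher (0.75, adjusted p = 0.0283, edgeR). The abundant E protein gene *Tcf4* had 222 and 211 CPM in WT and URE LSKs and the LDB1-binding *Ssbp2* 239 and 237 CPM, and neither was called. *Runx1*, *Erg* and *Fli1*, which often bind beside GATA2 and TAL1, were tested in both cell types and none was called.

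Genes that GATA factors are known to act on gave a mixed picture. Of 17 erythroid genes tested in LSKs, *Hemgn* and *Nfe2* rose and *Hbb-bt* and *Rhag* fell, and of 17 tested in GMPs none was called. Over all genes tested, 2.38% were called higher and 3.76% lower in LSKs, and 4.67% and 3.63% in GMPs. When each library was left out in turn, *Hbb-bt* was called each time in LSKs. A further erythroid gene was called lower there only without URE LSK replicate 3 or WT LSK replicate 3, so the *Rhag* call was lost otherwise. *Hemgn*, an erythroid nuclear protein gene, went from 36.0 ± 6.41 to 102 ± 29.7 CPM (log2 fold change 1.47, adjusted p = 0.00673), *Nfe2* from 489 ± 29.6 to 765 ± 83.4 CPM (0.61, adjusted p = 0.0359) and the globin gene *Hbb-bt* from 39.9 ± 28.9 to 1.74 ± 1.40 CPM (−4.54, adjusted p = 0.00638, edgeR with Benjamini-Hochberg adjustment, SD, n = 4 each). The other globin genes had higher means in URE and were not called by edgeR: *Hba-a1* had 2.44 ± 0.762 CPM in WT and 12.1 ± 15.8 CPM in URE LSKs (log2 fold change 2.29, adjusted p = 0.178, DESeq2 0.0222), *Hba-a2* 3.85 ± 1.51 and 20.7 ± 24.5 CPM (2.41, adjusted p = 0.121, DESeq2 0.00795) and *Hbb-bs* 5.11 ± 2.72 and 11.7 ± 14.6 CPM (1.18, adjusted p = 0.639, DESeq2 0.518). Their highest URE LSK values were 35.6, 57.1 and 33.5 CPM, so a single library carries much of each URE mean. The summed level of the 19 erythroid genes found was 1720 to 2390 CPM in WT and 3110 to 3640 CPM in URE LSKs, largely from *Car2* and *Nfe2*. Of 10 megakaryocyte genes tested in LSKs, *F2r*, a thrombin receptor gene, rose from 58.0 ± 16.7 to 247 ± 62.7 CPM (adjusted p = 0.00226) and *Itga2b*, the gene for CD41, from 36.6 ± 9.30 to 137 ± 75.0 CPM (SD, n = 4 each; adjusted p = 0.026, edgeR). In GMPs *Selp*, the gene for P-selectin, fell from 17.8 ± 15.0 to 2.58 ± 1.88 CPM (SD, n = 4 each; adjusted p = 0.0303, edgeR). The summed level of the 12 megakaryocyte genes was 583 to 1000 CPM in WT and 1140 to 2030 CPM in URE LSKs, and 321 to 597 CPM in WT and 221 to 716 CPM in URE GMPs. URE LSK replicate 3 stood apart, with 355 CPM of *Ppbp*, 76.6 of *Pf4* and 68.7 of *Gp1ba*, platelet genes that had at most 0.133, 7.72 and 13.5 CPM in the other URE LSK libraries, whose summed levels were 1140 to 1460 CPM. Without this library 2 of the 10 megakaryocyte genes were called higher and 2 lower, and the median log2 fold change of the list turned from 0.74 to −0.0732. That of the erythroid genes turned from 0.09 to −0.13 without it, and in GMPs from 0.40 to −0.068 without URE GMP replicate 3. Without URE GMP replicate 2, the library lowest in *Gata1* there, the erythroid median was 0.52 and 2 erythroid genes were called higher. The replicate block called *Tfrc* higher in GMPs and, in LSKs, *Car2* higher and *Car1* lower.

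Mast cell and basophil genes, where GATA1 and GATA2 act together, moved in both directions. Of all genes tested, 2.38% were called higher and 3.76% lower in LSKs, and 4.67% and 3.63% in GMPs. In LSKs *Cpa3* (23.4 ± 10.8 to 89.1 ± 39.0 CPM, adjusted p = 0.0212) and *Mcpt8* (3.94 ± 2.08 to 17.3 ± 8.74 CPM, adjusted p = 0.0262) rose among 11 tested (edgeR with Benjamini-Hochberg adjustment, SD, n = 4 each). With a library left out, *Cpa3* was called 5 of 8 and *Mcpt8* 3 of 8 times in LSKs. Neither they nor another gene of the list was called higher there without WT LSK replicate 1 or 2. In GMPs *Mcpt8* rose again (adjusted p = 0.0354), whereas *Ms4a2*, *Prss34* and *Cd200r3* fell among 10 tested, *Ms4a2* from 74.2 ± 14.4 to 9.77 ± 7.59 CPM (adjusted p = 0.0206, edgeR). The summed level of the 12 genes was 1250 to 2230 CPM in WT and 1350 to 2350 CPM in URE LSKs, with overlap. In GMPs it was 2590 to 3220 CPM in WT and 3680 to 4630 CPM in URE, the most abundant there being *Srgn* (760.0 and 1448 CPM), *Kit* (704.5 and 789 CPM) and *Cpa3* (576 and 1248 CPM). None of these 3 was called in GMPs in the fit of all libraries without the block (adjusted p = 0.144, 0.899 and 0.209, edgeR). *Srgn* was called with the replicate block (adjusted p = 0.0458, edgeR). Within replicates 1 and 4 alone, *Cpa3* had an adjusted p of 0.00432 and *Srgn* of 0.0498 (edgeR). Of 10 stem cell genes linked to GATA2, *Tek* alone was called, lower in LSKs (38.1 ± 13.4 to 7.70 ± 2.004 CPM, adjusted p = 0.00226) and in GMPs (16.2 ± 9.04 to 0.538 ± 0.230 CPM, adjusted p = 0.00122, edgeR, SD, n = 4 each). The replicate block added *Meis1* in LSKs and *Meis1*, *Hoxa9* and *Procr* in GMPs, all lower.

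T cell and innate lymphoid genes were read beside *Gata3*, which is high in those cells. *Cd3d*, *Cd3e* and *Cd3g*, which define T cells, had at most 0.59 CPM in any library, and *Cd3e* was at 0 in every library except WT LSK replicate 1 (0.032 CPM). The summed level of the list of 12 was 85.1 to 153 CPM in WT and 73.8 to 93.4 CPM in URE LSKs, where *Gata3* was higher in URE. In GMPs it was 21.6 to 55.4 CPM in WT and 35.9 to 141 CPM in URE. Of 8 tested in LSKs, *Icos* rose (4.05 ± 1.43 to 12.3 ± 4.49 CPM, adjusted p = 0.0426) and *Thy1* fell. Of 7 tested in GMPs, *Tcf7* rose from 0.724 ± 0.417 to 4.30 ± 1.85 CPM (adjusted p = 0.0156), *Rora* rose from 2.95 ± 0.718 to 7.17 ± 2.62 CPM (adjusted p = 0.0442) and *Il7r* fell from 1.08 to 0.0362 CPM (adjusted p = 0.0131, edgeR with Benjamini-Hochberg adjustment, SD, n = 4 each). Among all genes tested, 2.38% were called higher and 3.76% lower in LSKs, and 4.67% and 3.63% in GMPs. The calls of *Icos* in LSKs and *Rora* in GMPs were lost whichever library was left out. That of *Thy1* was lost without URE LSK replicate 2, WT LSK replicate 1 or WT LSK replicate 2. The replicate block added *Zbtb16* as higher in GMPs (1.75, adjusted p = 0.00099) and *Il7r* and *Lck* as lower in LSKs (−4.64 and −0.83, adjusted p = 0.0182 and 0.0438, edgeR). The part of such cells in the *Gata3* difference was not tested. The summed level of 6 B cell genes was 58.6 to 84.6 CPM in WT and 25.0 to 36.9 CPM in URE LSKs.

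Of 10 genes that PU.1 is known to activate, 5 fell in LSKs and 4 in GMPs, and none rose, where 3.76% and 3.63% of all genes tested were called lower. With the replicate block, which called 9.46% of all genes in LSKs and 16.3% in GMPs in either direction, 6 fell in LSKs, and in GMPs 5 fell and 1, *Csf3r*, rose (1.20, adjusted p = 0.00445, edgeR). *Csf1r*, the receptor of the macrophage growth factor, went from 20.1 ± 9.62 to 4.40 ± 2.03 CPM in LSKs (log2 fold change −2.22, adjusted p = 0.0184) and from 136 ± 96.9 to 12.7 ± 9.12 CPM in GMPs (−3.44, adjusted p = 0.0101). *Cd14* fell by 4.21 and 4.22 on the log2 scale (adjusted p = 0.0141 and 0.00174, edgeR with Benjamini-Hochberg adjustment, SD, n = 4 each). The median log2 fold change of these genes was −1.48 in LSKs and −1.27 in GMPs, beside −0.10 and 0.07 for the GATA factors and their partners. Without URE GMP replicate 2 the GMP median was −2.31 with 6 lower, whereas without any 1 of the other GMP libraries 3 were lower, and in LSKs 3 were lower without URE LSK replicate 1, URE LSK replicate 4 or WT LSK replicate 2. Mature neutrophil genes summed to 35.7 to 180 CPM in WT and 178 to 360 CPM in URE LSKs, and to 52.3 to 156 CPM in WT and 245 to 1010 CPM in URE GMPs, and their part in the values of the members was not tested.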

How the data were processed

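Each of the 4 groups gave 4 RNA-seq libraries, from at most 10 ng of RNA per mouse, unstranded and without molecular identifiers. The p-values measure the spread between these mice. The authors quantified reads with Salmon and deposited estimated counts per gene, summed from transcripts, rounded to whole numbers and not normalized, in a single table on GRCm38, per the labels and the methods of the study. The annotation release is not given in the sources used here, and 54094 of 54347 identifiers matched GENCODE M21, used for coordinates and lengths. Statements on depth cover counting error only.

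Groups and replicate numbers were taken from the labels. Counts were tested with edgeR 4.0.16 (R 4.3.3), using TMM scaling, filterByExpr, the quasi-likelihood test and Benjamini-Hochberg adjustment over all genes tested. Calls required an adjusted p below 0.05 together with a change of more than 1.5-fold, and for the interaction the adjusted p alone. URE was compared with WT within a cell type over 8 libraries, and GMPs with LSKs and the interaction over all 16 libraries. The shared 16-library fit means that comparisons between cell types and between genotypes use the same libraries and are not independent. For the exact permutation tests, log2 CPM was computed with 2 as prior count. CPM values are on the TMM scale of the 16 libraries. The 95% intervals are the log2 fold change plus or minus the t quantile times its SE, which was derived from the quasi-likelihood F. Plots were drawn with matplotlib 3.10.9.

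Replicate numbers come from the labels, and whether LSKs and GMPs of a number came from the same mouse is not given in the sources used here. Same-numbered libraries deviated together, with r (over genes) of 0.301 to 0.605 between URE and WT LSKs, 0.285 to 0.63 between URE and WT GMPs, and 0.377 to 0.711 between LSKs and GMPs of a genotype, so the numbers were taken as pairing the samples. Between genotypes, libraries of different number gave r of −0.551 to 0.482, positive between 1 and 4 and between 2 and 3, and URE replicate 4 was closer to WT replicate 1 (0.428 in LSKs, 0.482 in GMPs) than to WT replicate 4 (0.301 and 0.285). The pairing is thus shared in part by the sets 1 and 4 and 2 and 3, and a fit with the replicate number as a block is an alternative. No pair of replicates was near-identical (chi-square per degree of freedom at least 29.6). Alternatives were DESeq2 1.42.0, other size factors and filters, a joint fit, the replicate block, fits within replicates 1 and 4 or 2 and 3, a fit with the summed Y-linked level and leaving out each library. On simulated counts with 200 genes changed 4-fold, 59.5% were recovered in LSKs, 64% in GMPs and 41.5% for the interaction.

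The 8 members, the gene lists and the tests were chosen with earlier results of these data known. Named were the members and *Spi1*, of each other list the 4 genes with the highest mean and up to 3 called genes with the smallest p per genotype comparison, and for each member the 3 genes most alike, of which not all are discussed. *Rhag*, *Hba-a1*, *Hba-a2*, *Hbb-bs*, *Hoxa9*, *Procr*, *Ppbp*, *Pf4* and *Gp1ba* were named after their values were seen. *Ly6a*, *Cd3d*, *Cd3e* and *Cd3g* were also named outside this rule.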

Additional observations from a re-analysis of the deposited data

Results flagged for a closer look

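*Gata1* in WT LSKs was singled out because replicate 4, at 13.7 CPM, lay far from the other 3 libraries (6.47 to 7.69 CPM), its gap to the nearest being 0.833 of the range of the group, just above Dixon's 95% limit for 4 libraries. Over 40 groups checked in this way, chance alone gives about 2 such libraries.

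The *Spi1* loss differed between the cell types, by an interaction of 2.642 on the log2 scale (adjusted p = 0.0218, quasi-likelihood test of edgeR, Benjamini-Hochberg adjusted), from the fit of all 16 libraries. Without WT LSK replicate 4 the interaction was 2.47 with an adjusted p of 0.0503, and within replicates 2 and 3 alone it was 2.30 with an adjusted p of 0.681 (edgeR).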

How the results depend on the processing

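*Gata3* was called in LSKs and in GMPs under every alternative fit and with each library left out (1.12 to 1.23 in LSKs, 2.42 to 3.07 in GMPs on the log2 scale), except within replicates 2 and 3 alone, where 0 members were called in either comparison, in fits of 4 libraries. The within-set values of the cell type comparisons and the interaction, the *Gata3* share and the gene lists with a library left out were added after the data were seen. Within replicates 2 and 3 alone, 1 member (*Gata3*) was called between cell types in WT and 1 (*Gata3*) in URE. For the interaction, 1 member (*Gata3*) was called by DESeq2 and 2 (*Gata3* and *Lyl1*) with the replicate block, and 0 to 1 with a library left out. The replicate block also added *Tal1* between cell types in WT and changed no further call of a member. Within replicates 2 and 3 the *Spi1* loss in GMPs was −2.39 (adjusted p = 0.0713, edgeR). Calls of other genes that the text gives with values, the gate and granule genes left aside, numbered 23. Of these, 23 were also made with DESeq2, 23 with the replicate block, 17 within replicates 1 and 4, 8 within replicates 2 and 3 and 13 with the Y-linked covariate. Of the gate and granule genes, the *Elane* call in LSKs was lost within replicates 1 and 4 (adjusted p = 0.107) and with the Y-linked covariate (adjusted p = 0.239). The *Fcgr3* call in GMPs was lost with that covariate (adjusted p = 0.2, edgeR). With a library left out, 10 of the 23 were made each time, *Icos* in LSKs and *Rora* in GMPs never, *Nfe2*, *Itga2b* and (in GMPs) *Mcpt8* 2 of 8 times, and *Ldb2* and (in LSKs) *Mcpt8* 3 of 8 times. The 23 leave aside *Rhag* and *Thy1* in LSKs and *Prss34* and *Cd200r3* in GMPs, which the text names as lower without values. The *Gata3* share in LSKs, 20.7 percentage points higher in URE, missed the threshold of its exact test (p = 0.114).

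Counts of genes called moved with the setting. In LSKs, 360 were higher and 570 lower, against 677 and 955 with DESeq2, 581 higher with the replicate block, 157 and 229 within replicates 2 and 3, and 188 and 318 with the Y-linked covariate. In GMPs, 646 were higher and 502 lower, against 1112 and 887 with DESeq2, 1317 and 943 with the replicate block, 56 and 52 within replicates 2 and 3, and 325 and 295 with the Y-linked covariate. Between cell types, 574 were higher and 823 lower in WT and 581 and 674 in URE within replicates 2 and 3. For the interaction, 138 were higher and 56 lower, against 416 and 258 with DESeq2, 632 and 415 with the replicate block, 36 lower without a filter on low counts, 37 lower within replicates 1 and 4, and 1 and 1 within replicates 2 and 3. With a library left out, the counts were 206 to 353 higher and 359 to 608 lower in LSKs, 395 to 638 and 320 to 538 in GMPs, and 66 to 188 and 18 to 95 for the interaction. The lowest counts came without WT LSK replicate 2 in LSKs (219 higher also without WT LSK replicate 4) and without URE GMP replicate 4 in GMPs and the interaction.

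Signs turned only for differences that were not called. Within replicates 2 and 3 alone, the log2 values were 0.27 for *Gata1* in LSKs, −0.0621 for its interaction, 0.11 for *Gata2* in GMPs, 0.11 for *Gata2* between cell types in URE, 0.0808 for *Zfpm1* in LSKs, −0.17 for *Zfpm1* between cell types in WT and 0.14 for *Tal1* in GMPs. Within replicates 1 and 4 alone, they were 0.0103 for *Gata2* in LSKs, −0.11 for its interaction, −0.30 for *Lmo2* in GMPs, −0.14 for the *Ldb1* interaction and −0.000318 for *Spi1* between cell types in WT. With the Y-linked covariate they were 0.00723 and 0.17 for *Gata2* in LSKs and GMPs and −0.0816 for *Lmo2* in GMPs, and with the replicate block −0.0228 for *Lmo2* in GMPs. The *Gata2* interaction was −0.0114 with DESeq2, −0.0101 with other size factors and −0.0284 without a filter. With a library left out, the ranges that crossed 0 were −0.19 to 0.39 for *Gata1* in GMPs, −0.81 to 0.37 and −0.57 to 0.52 for *Gata2* in LSKs and GMPs, −1.23 to 0.12 between cell types in URE and −0.56 to 0.77 for its interaction. They were −0.43 to 0.13 for *Zfpm1* in LSKs, −0.29 to 0.37 between cell types in WT, −0.39 to 0.0198 for *Tal1* in GMPs, −0.64 to 0.10 and −0.38 to 0.23 for *Lmo2* in LSKs and GMPs, −0.13 to 0.65 for its interaction, −0.041 to 0.28 for the *Ldb1* interaction and −0.0282 to 0.34 for *Spi1* between cell types in WT. The cause of these shifts was not tested.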
